A study of Mus musculus with 6 samples.

Results

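Ribosome biogenesis begins in the nucleolus, where RNA polymerase I copies the tandem repeats of ribosomal DNA into a long precursor that is then cut, chemically modified and assembled with ribosomal proteins. Transcription needs UBTF, which opens the repeats, the SL1 complex, which marks the promoter, and RRN3, which joins the polymerase to SL1. Small nucleolar RNA particles (snoRNPs) then guide methylation and pseudouridylation of the precursor, and large sets of processing factors carry the small and large subunits towards export. In beta cells this pathway supplies the ribosomes used for the very large output of insulin.

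The ribosome biogenesis set names 45 genes, beside 23284 gene symbols counted in each library. They are Rn45s, the row named for the rRNA precursor, and 44 protein-coding genes. These 44 belong to RNA polymerase I, its initiation factors and the nucleolar processing machinery. The set was proposed because Rn45s was higher in every knockdown library, so the difference in Rn45s is given as a description with no test. The other genes of the set are described by their values, with no p for any single gene. Which of them a test called, and how many, is given beside the share over all genes, and nothing is read from it. Genes outside the set carry their test over all genes. Of the 45 genes, Noc2l had no row under that symbol, Taf1a had 0 counts in all 6 libraries, and 43 had enough counts to enter the fit.

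RNA was sequenced from MIN6, a beta cell line grown from a mouse insulinoma. In 3 libraries the cells had received an antisense oligonucleotide (ASO) against Paupar, a long noncoding RNA transcribed near Pax6, and in the other 3 a control ASO. The sources used here give neither dose nor time. MIN6 is 1 cell line, and the labels do not say whether replicates were separate cultures, so the spread described here is that between libraries and may be technical. Library totals were 16973622 to 23434166 counts in Paupar KD and 22463557 to 28693863 in control KD. Levels are given in CPM (counts scaled to a library of 1e+06, with TMM library factors). The 9 beta cell markers summed to 65253, 44358 and 44067 CPM in Paupar KD replicates 1 to 3, so that replicate 1 alone was far above the controls. In control KD they summed to 39386 to 43419 CPM. Markers of exocrine and duct cells (7 genes) summed to 0.685 to 1.06 CPM in Paupar KD and 1.24 to 1.70 CPM in control KD, with Cpa1, Prss2, Ptf1a and Sox9 at 0 in every library. Markers of mesenchymal, endothelial and immune cells (9 genes) summed to 2.54 to 3.35 CPM in Paupar KD and 3.71 to 4.12 CPM in control KD, with Col3a1, Cdh5 and Ptprc at 0; DESeq2 called 1 of them, Cd68, lower. Paupar has no row of its own, and its level could not be checked against the labels. In bulk libraries, fewer cells that express a gene and less RNA per cell cannot be told apart.

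The Rn45s row was 2.76 times as high in Paupar KD, and the median of the other tested genes of the set was near its control level. Reads of mature rRNA cut from the precursor may also fall in the Rn45s row, and their part was not tested. Rn45s had 119688, 131604 and 191150 counts in Paupar KD replicates 1 to 3, against 72996, 73386 and 42655 counts in control KD replicates 1 to 3. Scaled to library size, its level was 7059, 6437 and 8202 CPM in Paupar KD and 3234, 3125 and 1489 CPM in control KD. All 3 Paupar KD libraries lay above all 3 controls, and the lowest of them was 1.99 times the highest control. The means were 7232 ± 895 CPM in Paupar KD and 2616 ± 977 CPM in control KD (SD, n = 3 each), a log2 fold change of 1.47 ± 0.27 SE or 2.76-fold. The controls disagreed among themselves more than the knockdown libraries did: the highest was 1.27 times the lowest in Paupar KD and 2.17 times the lowest in control KD. Control KD replicate 3 was the low one. Without it the log2 fold change was 1.19, and without control KD replicate 1 it was 1.65.

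As a share of all counts, Rn45s took 0.705%, 0.648% and 0.816% in Paupar KD replicates 1 to 3, against 0.325%, 0.311% and 0.149% in control KD replicates 1 to 3. Exact 95% binomial (Clopper-Pearson) intervals ran from 0.701% to 0.709%, from 0.645% to 0.652% and from 0.812% to 0.819% in Paupar KD. In control KD they ran from 0.323% to 0.327%, from 0.308% to 0.313% and from 0.147% to 0.150%. These intervals cover counting error only, since reads copied by PCR are not independent molecules, and they are far narrower than the differences between replicates. The 43 protein-coding rows together took 0.308%, 0.368% and 0.339% of counts in Paupar KD and 0.324%, 0.330% and 0.335% in control KD. In each Paupar KD library the single Rn45s row thus held more counts than the 43 protein-coding rows summed. In control KD it was about level with them in replicate 1, and below them in replicates 2 and 3.

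**Figure D1:**
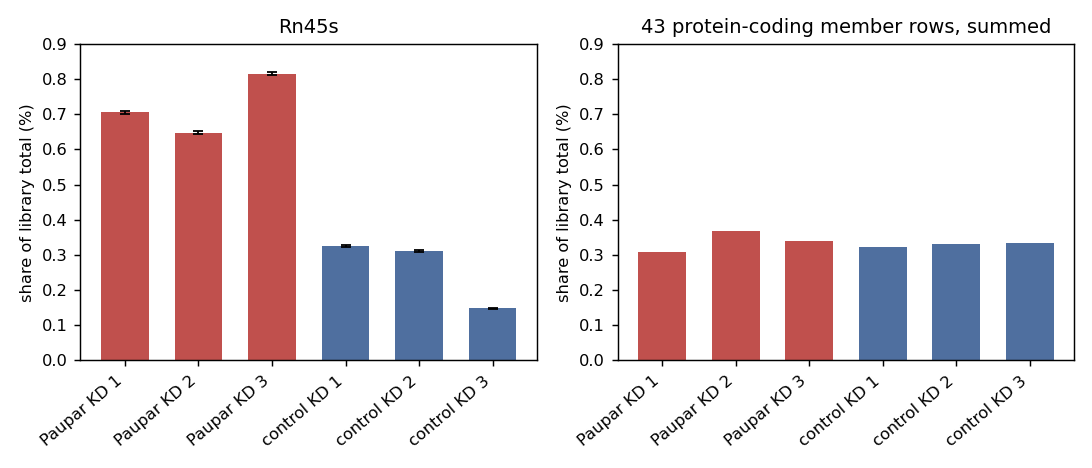
Share of each library's total counts, in percent, taken by Rn45s (left, with exact 95% binomial intervals as error bars) and by the 43 protein-coding rows summed (right); red bars are Paupar KD and blue bars control KD, 1 bar per library. Rn45s lies between 0.648% and 0.816% in Paupar KD and between 0.149% and 0.325% in control KD, while the summed protein-coding rows lie between 0.308% and 0.368% in all 6 libraries.

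Ribosomal RNA has no long poly(A) tail, and a list of 19 other small RNAs that lack one was read beside it. Of these, 11 had a row and 3 had enough counts to enter the fit. Rmrp, the RNA of the RNase MRP particle that cuts the rRNA precursor, had 15, 13 and 37 counts in Paupar KD, or 0.885, 0.636 and 1.59 CPM, against 13, 6 and 9 counts in control KD, or 0.576, 0.256 and 0.314 CPM. Rpph1, the RNA of RNase P, which matures transfer RNAs, had 28, 31 and 21 counts in Paupar KD and 16, 18 and 3 counts in control KD. Both were higher in each Paupar KD library than in each control, as were 13.7% of all genes tested. Their log2 fold changes were 1.47 ± 0.47 and 1.39 ± 0.56 SE. Neither passed edgeR's quasi-likelihood test over all genes (Benjamini-Hochberg adjusted p = 0.201 and 0.261) or DESeq2's. Terc, the telomerase RNA, went the other way, with 15, 18 and 15 counts in Paupar KD and 32, 25 and 30 counts in control KD (log2 fold change -0.55 ± 0.28 SE, edgeR adjusted p = 0.329). The median log2 fold change of the list was 1.39 over these 3 genes, and 0.21 in the fit without a low-count filter. The 11 rows summed to 3.43 to 3.57 CPM in Paupar KD and to 1.82 to 3.15 CPM in control KD. Of 56 replication-dependent histone genes, whose messenger RNAs also lack a tail, 27 entered the fit, 17 with a positive log2 fold change, with a median of 0.26. By edgeR 0 of them were called, with 6 higher and 1 lower at an unadjusted p under 0.05, and by DESeq2 0. Their sum was 324, 361 and 262 CPM in Paupar KD and 327, 313 and 311 CPM in control KD. Control KD replicate 3 was the lowest library for Rpph1, at 3 counts, as it was for Rn45s. The lowest library for Rmrp was control KD replicate 2, and for Terc it was a Paupar KD library. The part of RNAs without a tail in the Rn45s difference was not tested.

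**Figure D2:**
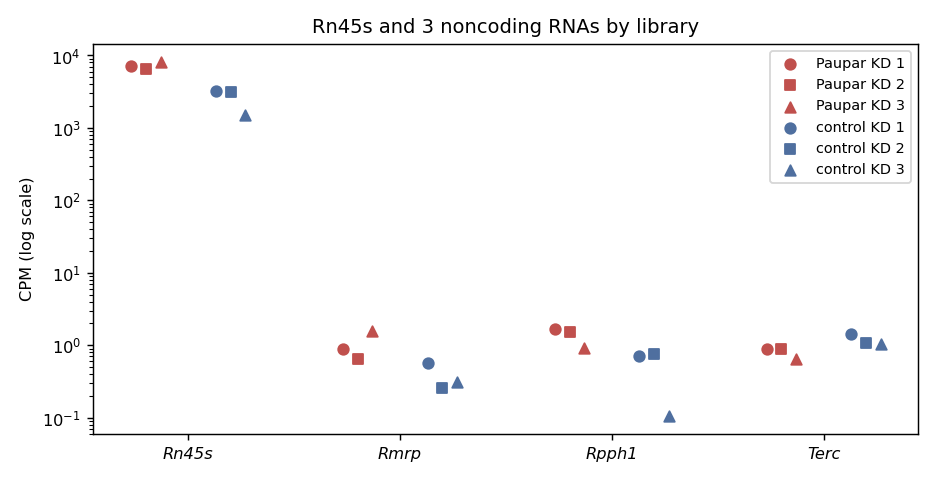
Level of Rn45s and of Rmrp, Rpph1 and Terc in each library, in CPM on a log scale, with Paupar KD in red and control KD in blue and 1 marker shape per replicate number; levels are to be read within a gene, not between genes. Rn45s, Rmrp and Rpph1 are higher in all 3 Paupar KD libraries than in any control and Terc is lower. Of all genes tested, 13.7% lie above all controls and 13.3% below.

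The 5 RNA polymerase I subunit genes of the set differed by at most 0.12 on the log2 scale. The largest catalytic subunit gene, Polr1a, stood at 35.9, 40.4 and 40.1 CPM in Paupar KD and at 36.1, 39.1 and 44.7 CPM in control KD, a log2 fold change of -0.04 ± 0.11 SE. Polr1b, for the other subunit of the active centre, stood at 22.5, 24.1 and 23.0 CPM in Paupar KD and 21.7, 23.3 and 26.5 CPM in control KD (-0.04 ± 0.11 SE). For Polr1b the Paupar KD values lay inside the control range, and for Polr1a Paupar KD replicate 1 lay just below the lowest control. Polr1c and Polr1d encode the assembly pair that RNA polymerase I shares with RNA polymerase III. Polr1c was at 77.8, 63.2 and 60.5 CPM in Paupar KD and at 60.02, 61.4 and 64.3 CPM in control KD (0.12 ± 0.11 SE), its excess being in Paupar KD replicate 1. Polr1d was at 66.3, 73.2 and 62.8 CPM in Paupar KD and 69.9, 69.8 and 59.4 CPM in control KD (0.02 ± 0.10 SE). Polr1e, for a subunit that helps initiation and elongation, was at 10.9, 10.6 and 9.14 CPM in Paupar KD and 11.3, 9.54 and 9.67 CPM in control KD (0.00 ± 0.13 SE). The log2 fold changes thus ran from -0.04 to 0.12. These are levels of subunit mRNA, and the activity of the polymerase was not measured.

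Of the subunit genes outside the set, Znrd1, Twistnb and Cd3eap, 0 of 3 passed by edgeR, 0 had an unadjusted p under 0.05, and DESeq2 called 0: Znrd1 was at 25.2 ± 5.01 CPM in Paupar KD and 20.8 ± 1.05 CPM in control KD (edgeR adjusted p = 0.348), Twistnb at 29.1 ± 4.78 CPM in Paupar KD and 26.3 ± 0.78 CPM in control KD (0.564), and Cd3eap at 19.0 ± 2.57 CPM in Paupar KD and 19.98 ± 0.95 CPM in control KD (0.786). Of the 5 subunits shared by all 3 nuclear polymerases, 0 passed by edgeR, at an unadjusted p under 0.05 or by DESeq2, and the log2 fold changes ran from 0.01 for Polr2f to 0.28 for Polr2e. Polr2e stood at 58.0, 42.99 and 41.1 CPM in Paupar KD and 38.0, 39.4 and 39.9 CPM in control KD (edgeR adjusted p = 0.323). Polr2h, Polr2k and Polr2l had log2 fold changes of 0.08, 0.04 and 0.11.

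Among the 5 tested initiation factor genes, Rrn3 and Taf1d had all Paupar KD values below all control values, as did 13.3% of all genes tested, and the groups overlapped for the other 3. Ubtf, whose protein coats active ribosomal DNA, had the smallest error of the set: 134, 137 and 142 CPM in Paupar KD and 138, 136 and 129 CPM in control KD, a log2 fold change of 0.03 ± 0.08 SE. Rrn3, the growth-regulated factor that recruits the polymerase, was at 102, 124 and 126 CPM in Paupar KD and at 133, 131 and 144 CPM in control KD. All 3 knockdown libraries lay below the controls, with a log2 fold change of -0.21 ± 0.10 SE. Taf1d, for an SL1 subunit, was at 17.1, 28.2 and 24.5 CPM in Paupar KD and at 31.4, 32.3 and 33.0 CPM in control KD. Its log2 fold change of -0.47 ± 0.17 SE, a mean level 0.722 of the control, was the lowest of the protein-coding genes in the set, and Paupar KD replicate 1 was the lowest library. The other tested SL1 genes had groups that overlapped. Taf1b was at 25.6, 30.0 and 29.7 CPM in Paupar KD and 27.6, 30.5 and 29.4 CPM in control KD (-0.04 ± 0.10 SE), and Taf1c at 15.6, 16.3 and 13.5 CPM in Paupar KD and 13.6, 14.7 and 16.2 CPM in control KD (0.03 ± 0.12 SE). Of the 15 genes listed as regulators of ribosomal DNA chromatin or its transcription, 0 passed by edgeR or DESeq2, and at an unadjusted p under 0.05 there were 1 higher and 1 lower. The log2 fold change was negative in 12 of the 15, and the median was -0.07. Ttf1, which ends transcription of the repeats, was at 17.2 ± 1.69 CPM in Paupar KD and 16.2 ± 1.28 CPM in control KD (edgeR adjusted p = 0.748), and Baz2a, of the complex that silences repeats, at 131 ± 15.2 CPM in Paupar KD and 134 ± 7.81 CPM in control KD (0.899). Myc, the best known activator of ribosome biogenesis genes, was at 6.25, 11.9 and 15.4 CPM in Paupar KD and 15.9, 13.8 and 12.9 CPM in control KD (edgeR adjusted p = 0.540), and its partner Max at 59.7 ± 7.26 CPM in Paupar KD and 58.2 ± 0.79 CPM in control KD (0.873). Mki67, a marker of cycling cells, was at 469 ± 112 CPM in Paupar KD and 752 ± 67.1 CPM in control KD (log2 fold change -0.68 ± 0.17 SE, edgeR adjusted p = 0.149), with every Paupar KD library below every control; its part in these results was not tested.

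MYC binds the E-box CACGTG, so the promoters of the set were read for this word. RefSeq promoter windows of 300 bases (250 before the annotated start and 50 after, mouse build GRCm38.p6) were found for 39 of the 45 genes. CACGTG, which is its own reverse complement, was present in 7 of them (17.9%), against 11.9% of the 9302 tested genes with a window. The 7 were Rrn3, Wdr43, Utp18, Utp20, Nop2, Pes1 and Mybbp1a. In Rrn3, Utp18 and Nop2 it lay before the start, and these are shown because Rrn3 is the initiation factor described above and held a pair of E-boxes. Capitals mark CACGTG, and the 5′ end is the one farther from the gene. They come from chr16:13780449-13780693 (plus strand, E-boxes beginning 215 and 48 bases before the start), chr11:93885767-93885823 (minus strand, 20 bases before the start) and chr6:125131786-125131865 (plus strand, 60 bases before the start), all in GRCm38.p6.
Rrn3: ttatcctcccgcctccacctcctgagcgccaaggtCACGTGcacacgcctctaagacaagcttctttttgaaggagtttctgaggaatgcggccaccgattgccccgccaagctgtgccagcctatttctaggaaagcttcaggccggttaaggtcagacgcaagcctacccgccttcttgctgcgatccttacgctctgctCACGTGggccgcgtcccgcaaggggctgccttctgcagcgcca
Utp18: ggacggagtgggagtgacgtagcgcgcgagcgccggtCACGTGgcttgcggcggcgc
Nop2: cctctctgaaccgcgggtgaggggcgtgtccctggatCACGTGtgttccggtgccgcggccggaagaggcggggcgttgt

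The 7 genes with an E-box had small differences, the lowest log2 fold change being the -0.21 of Rrn3. In 6 it was negative and in 1, Pes1 (0.04), positive. Among the 42 tested protein-coding genes of the set, 19 were negative. The sign changed for Wdr43, Utp18, Utp20, Pes1 and Mybbp1a in at least 1 of the 12 alternative fits described below. Other words were searched on both strands. GGGCGG, the GC box, was in 76.9% of the set and 69.2% of tested genes. GCATGC, the core of the NRF1 site, was in 12.8% of the set and 11.5% of tested genes. TGACGTCA, the cyclic AMP response element, was in 2.56% of the set and 3.72% of tested genes, the single match in the set being Noc4l. None of the 4 words contains another. A match describes the letters of a window, not a bound site.

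The 3 abundant nucleolar chaperone genes differed among themselves, and all had groups that overlapped. Ncl, for nucleolin, which binds the nascent precursor, was at 618, 829 and 763 CPM in Paupar KD and at 566, 618 and 618 CPM in control KD (log2 fold change 0.29 ± 0.12 SE). Its lowest knockdown value lay just under the highest controls. Npm1, for nucleophosmin, was at 122, 162 and 179 CPM in Paupar KD and 180, 196 and 176 CPM in control KD (-0.25 ± 0.14 SE), with Paupar KD replicate 1 lowest. Nolc1, for the scaffold protein that carries snoRNPs, was at 162, 185 and 171 CPM in Paupar KD and 165, 169 and 178 CPM in control KD (0.02 ± 0.09 SE). Npm1 has near-identical processed copies in mammalian genomes, and how reads shared with such copies were counted is not given in the sources used here.

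In the box C/D particle, which methylates the precursor, the groups overlapped for all 4 genes. Nop58, for a core protein, was at 209, 250 and 209 CPM in Paupar KD and 208, 213 and 209 CPM in control KD (log2 fold change 0.08 ± 0.10 SE). Its partner Nop56 was at 116 ± 11.99 CPM in Paupar KD and 123 ± 3.56 CPM in control KD (-0.09 ± 0.10 SE), Fbl, the methyltransferase, at 16.4 ± 1.42 CPM in Paupar KD and 15.4 ± 0.89 CPM in control KD (0.09 ± 0.11 SE), and Rrp9, a protein of the U3 particle, at 17.9 ± 2.20 CPM in Paupar KD and 16.2 ± 0.18 CPM in control KD (0.14 ± 0.12 SE). Fbl has 1 named pseudogene, Fbl-ps2, and how any reads shared with it were counted is not given in the sources used here. In the box H/ACA particle, which makes pseudouridine, the genes differed among themselves. Gar1 had the highest log2 fold change of the protein-coding genes, with 20.9, 22.4 and 18.1 CPM in Paupar KD against 15.3, 14.5 and 14.6 CPM in control KD (0.46 ± 0.11 SE, or 1.38-fold). All 3 knockdown libraries were above the controls, as for 13.7% of all genes tested. Nhp2 was at 30.3, 25.6 and 27.2 CPM in Paupar KD and 25.6, 26.1 and 22.3 CPM in control KD (0.17 ± 0.11 SE), and the catalytic subunit gene Dkc1 at 38.4 ± 5.32 CPM in Paupar KD and 37.2 ± 1.70 CPM in control KD (0.04 ± 0.12 SE). Of 12 other genes of snoRNPs and their assembly, 0 passed by edgeR or DESeq2, and 2 were higher and 2 lower at an unadjusted p under 0.05. The log2 fold change was positive in 8, and its median was 0.08.

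Several genes of the set host snoRNA genes within their bounds. In the GENCODE M1 annotation of NCBIM37, the assembly also called mm9, 7 of the 42 annotated genes of the set (16.7%) contained at least 1 snoRNA gene on their own strand, against 266 of 12800 annotated genes in the fit (2.08%). They were Taf1d with 8 snoRNAs, Nop56 and Nop58 with 4 each, Ncl, Wdr43 and Gnl3 with 3 each, and Dkc1 with 1, 26 in all. Their log2 fold changes were mixed, 4 negative and 3 positive. Taf1d lies on chromosome 9 from 15110658 to 15121441 (mm9, plus strand), in 12 merged exon blocks, with SNORA32, SNORA8, SNORD5, SNORA18, SNORA40, SNORA1, SNORA25 and snoZ40 within its bounds. Gnl3 lies on chromosome 14 from 31825620 to 31832275 (mm9, minus strand). Of 14 other snoRNA host genes tested, 0 passed by edgeR, 1 was higher and 1 lower at an unadjusted p under 0.05, and DESeq2 called 1 higher, Snhg8. The log2 fold change was negative in 11 of them, and the median was -0.11.

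Of the 10 small subunit factors, 4 had a positive and 6 a negative log2 fold change, and the median was -0.05. Utp15, of the complex that couples transcription to processing, was at 62.2, 72.9 and 77.6 CPM in Paupar KD and 82.5, 83.2 and 78.9 CPM in control KD (-0.20 ± 0.10 SE). Nob1, the endonuclease that makes the end of the mature small-subunit rRNA, was at 27.2, 26.7 and 26.6 CPM in Paupar KD and 29.8, 28.2 and 27.8 CPM in control KD (-0.09 ± 0.09 SE). In both, every knockdown library was below every control, as for 13.3% of all genes tested. Utp20, for a scaffold protein, was at 24.9, 43.3 and 47.8 CPM in Paupar KD and 38.4, 40.8 and 46.2 CPM in control KD, so that Paupar KD replicate 1 alone was low (-0.11 ± 0.22 SE). Nat10, the enzyme that acetylates small-subunit rRNA, was at 39.5, 53.02 and 45.4 CPM in Paupar KD and 52.0, 55.0 and 58.8 CPM in control KD (-0.26 ± 0.12 SE). The highest knockdown value of Nat10 lay inside the control range. The other 6 genes were within 0.13 of 0: Bysl at 0.13, Noc4l at 0.11, Rrp12 at 0.09, Nop14 at 0.03, Utp18 at -0.04 and Wdr43 at -0.06. Outside the set, 0 of 46 tested genes of small subunit processing passed by edgeR or DESeq2, and 3 were higher and 4 lower at an unadjusted p under 0.05. There were 21 positive and 25 negative log2 fold changes, and the median was -0.02. Among them the scaffold gene Heatr1 was at 41.9 ± 9.38 CPM in Paupar KD and 48.5 ± 3.71 CPM in control KD (edgeR adjusted p = 0.511), Nol6 at 67.3 ± 1.01 CPM in Paupar KD and 66.9 ± 3.87 CPM in control KD (0.975), and Pwp2 at 24.1 ± 0.77 CPM in Paupar KD and 22.8 ± 0.84 CPM in control KD (0.698).

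The large subunit factors had both higher and lower genes, with a median log2 fold change of 0.04 over 11 genes. Nop16 was at 27.2, 24.6 and 22.7 CPM in Paupar KD and 20.3, 18.5 and 19.5 CPM in control KD (0.35 ± 0.11 SE). Rrs1, which helps bring RPL5 and RPL11 into the large subunit, was at 42.05, 50.1 and 44.2 CPM in Paupar KD and 39.6, 37.1 and 37.1 CPM in control KD (0.26 ± 0.10 SE). Both lay above the controls in all 3 knockdown libraries, as did 13.7% of all genes tested. The 3 genes of the PeBoW complex, which matures the large-subunit rRNA, had small positive values: Bop1 at 0.17 ± 0.12, Wdr12 at 0.10 ± 0.09 and Pes1 at 0.04 ± 0.09 (log2 fold change, SE). Gnl3, for nucleostemin, was at 43.6, 79.4 and 70.0 CPM in Paupar KD and 71.5, 72.3 and 73.3 CPM in control KD (-0.17 ± 0.19 SE). Its controls lay between 71.5 and 73.3 CPM, and Paupar KD replicate 1 was far below them. Rrp1b had its low value in another library, with 44.8, 42.6 and 28.7 CPM in Paupar KD and 44.9, 44.7 and 48.2 CPM in control KD (-0.25 ± 0.16 SE). The rest ran from -0.09 for the helicase gene Ddx21 through -0.06 for Nop2 and Noc3l to 0.07 for Ebna1bp2, and Mybbp1a, for a nucleolar protein that restrains RNA polymerase I, was at -0.02. Of 52 other genes of large subunit assembly, 0 passed by edgeR or DESeq2, and 3 were higher and 1 lower at an unadjusted p under 0.05. There were 30 positive and 22 negative log2 fold changes, and the median was 0.01. Among 25 genes of rRNA cleavage and the exosome, 0 passed by edgeR, 3 were higher and 0 lower at an unadjusted p under 0.05, DESeq2 called 1 higher, Exosc4, and the median was 0.04.

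**Figure D3:**
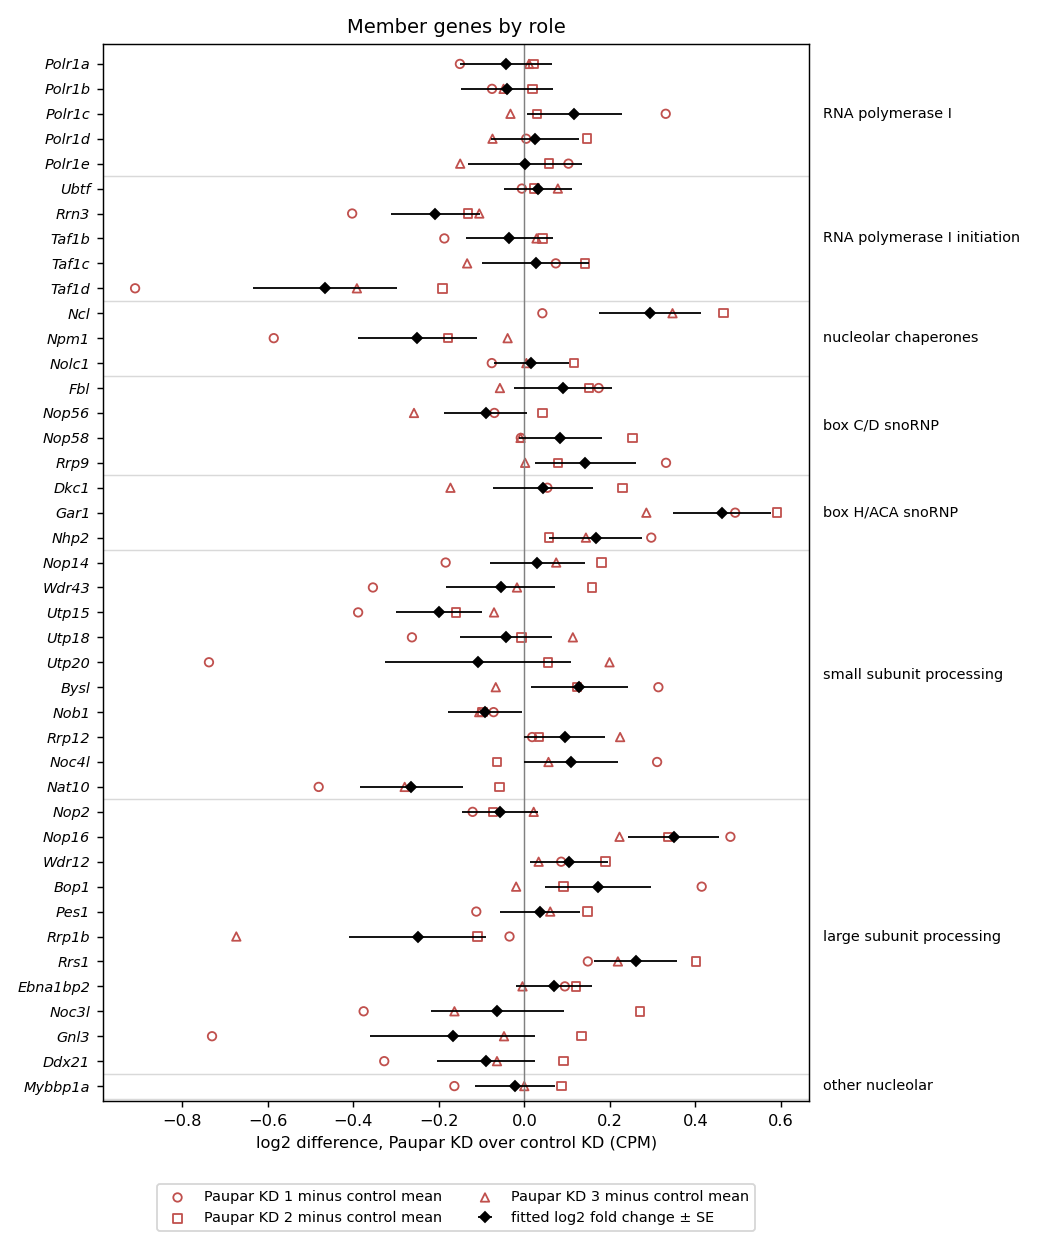
Difference of each protein-coding gene of the set from its control KD level, on the log2 scale: red open symbols are the 3 Paupar KD libraries minus the control KD mean, and black diamonds with bars are the fitted log2 fold changes ± SE. Most diamonds lie within 0.2 of 0, Taf1d at -0.47 and Gar1 at 0.46 are the ends, and the circle of Paupar KD replicate 1 is the far symbol for Taf1d, Npm1, Utp20 and Gnl3.

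Over the 42 tested protein-coding genes, 23 log2 fold changes were positive and 19 negative, and the median was 0.02, beside 0.01 over all 13039 genes tested. In 32 of the 42 the difference was under 0.2 on the log2 scale, and in 35 it was within 2 SE of 0. By edgeR at an adjusted p under 0.05, 0 of the 42 were called, where 0.0460% of all genes were; at an unadjusted p under 0.05, 4 were higher and 1 lower, where 17.7% of all genes fell under that mark. Since the set was chosen from this comparison, nothing is read from these counts. DESeq2 called 1, Gar1, where it called 3.80% of all genes. Without Paupar KD replicate 1 edgeR called Ncl, where 1.91% of all genes were called, and without Paupar KD replicate 3 it called Gar1 and Nop16, where 10.3% were. For 3 genes, Gar1, Nop16 and Rrs1, all Paupar KD libraries were above all controls (7.14%, beside 13.7% of all genes), and for 4, Rrn3, Taf1d, Utp15 and Nob1, all were below (9.52%, beside 13.3% of all genes).

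The knockdown libraries differed from each other. The median difference from the control mean over the 42 genes was -0.05, 0.08 and -0.01 on the log2 scale in Paupar KD replicates 1 to 3, beside -0.02, -0.01 and 0.03 in control KD replicates 1 to 3. Paupar KD replicate 1 held the lowest value of 18 of the 42 genes and Paupar KD replicate 2 the highest value of 17. Without Paupar KD replicate 2, only 15 of the 42 log2 fold changes were positive and the median was -0.05. The spread within a group followed that of all genes: the median SD of log2 CPM was 0.15 for the set and 0.20 for all genes in Paupar KD, and 0.07 and 0.08 in control KD. Rn45s was 1.52, 1.38 and 1.73 above the control mean in Paupar KD replicates 1 to 3, a shared direction that the choice of the set had fixed.

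Per length, the set spanned a wide range. RPKM (CPM per kilobase of merged GENCODE M1 exons) could be set for 42 genes and had a median of 16.8 in control KD. The order below depends on these merged lengths, which were 8257 bases for Ncl, 2587 for Nop58 and 3897 for Polr1e. The submitters' annotation is not given, so other lengths could change the order. In CPM, Ncl stood above Nop58 in control KD, at a mean of 601 against 210. Nop58 was highest in control KD, at 86.1 ± 9.26 in Paupar KD and 81.2 ± 1.01 in control KD. Ncl, highest in Paupar KD, was at 89.2 ± 13.1 in Paupar KD and 72.8 ± 3.67 in control KD, and Npm1 at 58.0 ± 10.9 in Paupar KD and 69.0 ± 3.93 in control KD. In control KD these 3 stood in the order Nop58, Ncl, Npm1; Ncl and Npm1 were within their SDs of each other there, as were Nop58 and Ncl in Paupar KD. Nolc1 came next at 47.5 ± 3.20 in Paupar KD and 47.0 ± 1.84 in control KD. The polymerase subunits reached from 2.61 for Polr1e, the lowest of the set, through 4.11 for Polr1b and 6.08 for Polr1a to 27.2 for Polr1c and 33.4 for Polr1d in control KD, the last 2 being the subunits shared with RNA polymerase III. Exons of 14 genes shared bases with another annotated gene, at most 480 bases, in Taf1c with Lrrc50; without the strand setting, reads in such bases cannot be given to one gene.

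**Figure D4:**
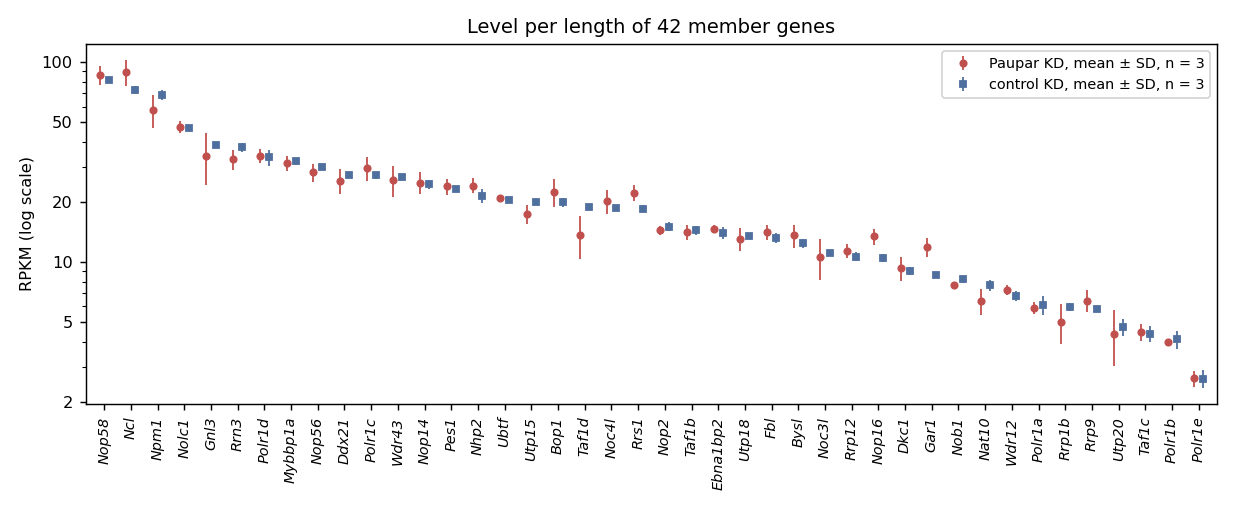
Level per length of 42 genes of the set in RPKM on a log scale, ordered by the control KD mean; red circles are Paupar KD and blue squares control KD, each a mean with SD over 3 libraries. Levels run from 2.61 RPKM for Polr1e to 81.2 RPKM for Nop58 in control KD, and Taf1d, Nop16 and Gar1 are among the genes whose error bars do not meet.

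Ribosomal protein genes had more positive than negative log2 fold changes. With both directions together, their share at an unadjusted p under 0.05 by edgeR was near that of all genes, 17.7%. Over all 13039 genes tested, 6652 log2 fold changes were positive and the median was 0.01. At an unadjusted p under 0.05 by edgeR, 1256 of all genes were higher and 1058 lower. Of 32 tested small subunit genes 26 were positive, and the median was 0.18. By edgeR and by DESeq2 0 were called, with 6 higher and 0 lower at an unadjusted p under 0.05. For 8 of the 32 all Paupar KD libraries were above all controls, and for 0 all were below, beside 13.7% and 13.3% of all genes. Of 45 tested large subunit genes 32 were positive, and the median was 0.10. By edgeR 0 were called, with 4 higher and 3 lower at an unadjusted p under 0.05, and DESeq2 called 1 higher and 1 lower. For 4 of the 45 all Paupar KD libraries were above all controls, and for 5 all were below. The small subunit list was above the control mean in each knockdown library, by 0.23, 0.18 and 0.11 in Paupar KD replicates 1 to 3. The proteins of Rpl5 and Rpl11 hold MDM2 when ribosome assembly is disturbed. Rpl5 was at 6.20 ± 0.94 CPM in Paupar KD and 5.78 ± 0.14 CPM in control KD (edgeR adjusted p = 0.777). Rpl11 was at 7.63 ± 5.52 CPM in Paupar KD and 5.87 ± 0.55 CPM in control KD (edgeR adjusted p = 0.660). Rpl11 was at 13.9 CPM in Paupar KD replicate 2 and at 3.72 to 6.43 CPM in the other libraries. Most ribosomal protein genes have many processed copies in the genome, so their levels here are uncertain. Of 11 tested genes of the p53 response to disturbed ribosome assembly, 0 passed by edgeR, 1 was higher and 0 lower at an unadjusted p under 0.05, DESeq2 called 1 higher, Cdkn2a, and the median was 0.10. RNA polymerase III subunits (11 tested, median -0.01), RNA polymerase II subunits (8 tested, median 0.12) and the MYC network (11 tested, median -0.06) held 0 calls by edgeR or DESeq2. At an unadjusted p under 0.05 they had 3, 2 and 0 higher genes and 1, 0 and 0 lower ones, in that order of lists.

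**Figure D5:**
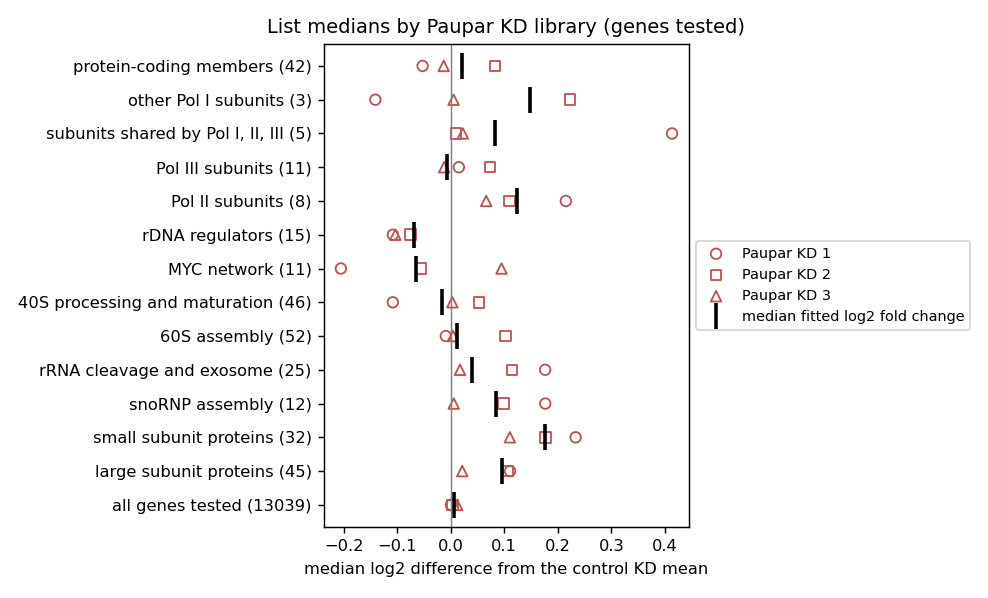
Median log2 difference from the control KD mean in each Paupar KD library (red open symbols) and median fitted log2 fold change (black bar) for the 42 protein-coding genes of the set, for neighbouring gene lists and for all genes tested, with the number of genes in brackets. The median fitted log2 fold change is 0.02 for the set, 0.18 for small subunit ribosomal proteins and 0.01 for all genes, and single libraries spread widely within several lists, as for rRNA cleavage and exosome genes at 0.18, 0.11 and 0.02 in Paupar KD replicates 1 to 3.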

How the data were processed

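RNA of MIN6 cells was sequenced in 6 libraries, 3 per group. Per the labels' protocols, RNA was isolated with a Qiagen kit and libraries made with an Illumina TruSeq RNA kit. The authors deposited a raw count for each of 23284 gene symbols per library, with no normalization; the submitters' processing notes name CASAVA 1.8.2, HISAT2, HTSeq, DESeq2 and build mm9, with no role or order. The sources used here give neither the strand setting nor the annotation.

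Counts were fitted in edgeR 4.0.16 (R 4.3.3): filterByExpr (minimum count 10), which left 13039 genes, TMM scaling, the robust quasi-likelihood test and Benjamini-Hochberg adjustment over all genes at 0.05. The SE is the log2 fold change divided by the square root of F. CPM uses the TMM-scaled totals. Log2 differences by library use a prior count of 2. The fit was tested on simulated data. Sequences are from RefSeq, gene models from GENCODE M1.

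The members and lists were chosen with earlier results of these data known. By rule, per-library values were given for Rn45s, RNA polymerase I genes and factors, members whose groups do not overlap and the 5 highest members per length; the other members, Rmrp, Rpph1, Terc and the genes that DESeq2 alone called were named after their values were seen. Alternatives were RLE factors, library totals only, Rn45s left out of totals, no filter, DESeq2 1.42.0, a replicate block and each library left out. No pair of replicates agreed within sampling noise: the chi-square per gene was at least 3.46.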

Additional observations from a re-analysis of the deposited data

How the results depend on the processing

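By edgeR over all genes, 5 were higher and 1 lower in Paupar KD, 0 of the 42 tested protein-coding genes of the set were called, and 0 genes of the other lists. The counts over all genes were 36 higher and 24 lower without a low-count filter, and 268 and 227 with DESeq2, which called 1 gene of the set and 6 of the other lists. The cause was not tested. With 1 library left out they ran from 0 to 611 higher and from 0 to 745 lower: dropping Paupar KD replicate 1 gave 123 and 128, dropping Paupar KD replicate 3 gave 611 and 745, and dropping Paupar KD replicate 2 or any 1 control gave 0 and 0. Genes of the set called then ran from 0 to 2, and genes of the other lists from 0 to 20, 2 when Paupar KD replicate 1 was dropped, and 20 when it was Paupar KD replicate 3. Positive log2 fold changes in the set numbered 23, and 15 to 28 with 1 library left out, lowest without Paupar KD replicate 2, with medians from -0.0507 to 0.0340. The log2 fold change of Rn45s was 1.47, and 1.19 to 1.65 with 1 library left out. The replicate block gave 1 higher and 0 lower genes, 0 of the set, and 1.54 for Rn45s. Deviations of same-numbered libraries correlated at 0.072, -0.011 and 0.006, and of the 3 Paupar KD libraries only replicate 1 correlated best with its own number, so the numbers were not taken as pairs. Size factors by RLE and library totals alone gave 5 and 1 again. Over 12 alternatives, 22 of the 42 genes kept their direction and 20 changed it at least once.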
